A study of Mus musculus with 2 samples.

Results

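10 genes of the ganglionic eminences and of GABA synthesis were followed in forebrain RNA of mouse embryos at embryonic day 11.5. They are Dlx1, Dlx2, Dlx5, Dlx6, Gad1, Gad2, Isl1, Lhx6, Lhx8 and Nkx2-1, chosen by name and matched by gene ID, and all 10 were found among the 43346 mouse gene rows of each deposited table. The series holds 1 group, the forebrain of B6NCrl embryos, measured in 2 libraries. Replicate 1 pooled the forebrains of 109 embryos and replicate 2 those of 88, male and female together. Each library was made by a SmartSeq protocol from 1 cell-equivalent of total RNA longer than 200 nucleotides, so one library is a very small draw from a large pool and not a single cell. The labels name no mutation and no treatment, so no groups are compared, no test across groups was possible, and what follows gives levels and how far the replicates differed.

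The ganglionic eminences are the swellings of the ventral telencephalon in which the GABAergic neurons of the striatum and the inhibitory interneurons of the cortex are born. Nkx2-1 specifies the medial eminence and switches on the LIM-homeodomain genes Lhx6, needed by migrating interneurons, and Lhx8, needed by cholinergic neurons. The DLX homeodomain genes lie as linked pairs, Dlx1 beside Dlx2 and Dlx5 beside Dlx6, act in a cascade across all eminences, and promote expression of Gad1 and Gad2, which encode the enzymes GAD67 and GAD65 that make GABA from glutamate. Isl1, a LIM-homeodomain gene, marks the striatal lineage of the lateral eminence and is also used in the hypothalamus, motor neurons and sensory ganglia.

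The 2 libraries held 27395002 and 27977544 expected counts on mouse genes. At a detection threshold of 1 TPM (a level scaled for transcript length and depth), 5 of 6 telencephalic check genes were found in both libraries, with Nr2e1 at 67.3 and 44.3 TPM, Lhx2 at 47.0 and 42.1 TPM and Otx2 among them. Of genes with a mean of at least 10 TPM, 51.3% differed 2-fold between the replicates on the log2(TPM + 1) scale, and 18.1% had under 1% of their depth-scaled counts in one of the libraries. Differences are given as replicate 1 minus replicate 2 on that scale, on which low genes appear to change less than they do. The deposited interval of a TPM covers the assignment of reads within a library and not the spread between libraries. In bulk RNA, fewer cells of a type and less RNA per cell cannot be told apart.

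Of the 10 genes, 6 were detected at 1 TPM or more in both libraries (Dlx1, Dlx5, Gad1, Gad2, Isl1 and Nkx2-1), against 30.4% of all protein-coding genes. Lhx6, Lhx8 and Dlx6 were detected in replicate 1 alone and Dlx2 in replicate 2 alone, so 4 of 10 were found in one library, beside 37.5% of all genes detected in either. Each gene thus reached 1 TPM in at least 1 library. The mean level ran from 71.8 ± 6.06 TPM for Isl1 to 0.55 ± 0.778 TPM for Dlx6 (SD, n = 2), with Gad2, Dlx1, Dlx5, Lhx6, Gad1, Dlx2, Nkx2-1 and Lhx8 between them in that order. None of the 9 neighbouring pairs in this order was separated, since the lower library of the higher gene lay below the higher library of the lower gene each time. Of all 45 pairs of these genes, 25 kept the same order in both libraries. The summed level was 235 TPM in replicate 1 and 284 TPM in replicate 2.

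**Figure D1:**
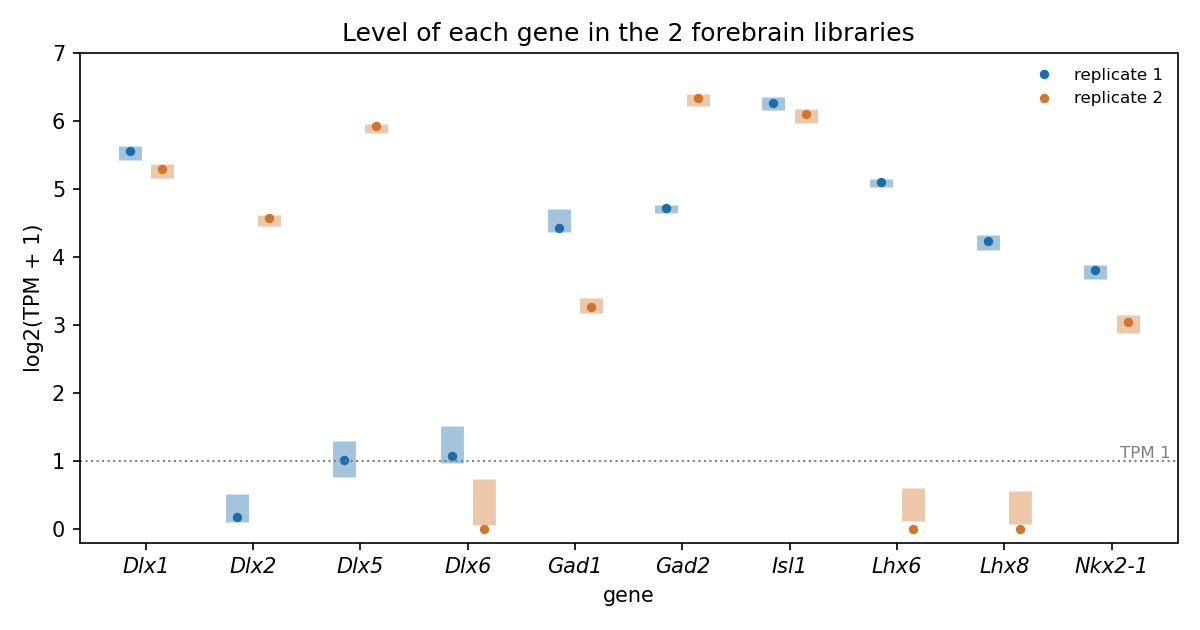
Level of each of the 10 genes, as log2(TPM + 1), in replicate 1 (blue) and replicate 2 (orange); points are the deposited TPM and pale bars the deposited interval within one library. Isl1, Dlx1, Gad1, Gad2 and Nkx2-1 stood well above 1 TPM in both libraries, Lhx6 and Lhx8 were at 0 in replicate 2, and Dlx2 and Dlx5 were at or near the bottom in replicate 1.

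The patterning gene of the medial eminence, Nkx2-1 (ENSMUSG00000001496.11, chromosome 12, 56531958 to 56536908 on mm10, minus strand), was read in both libraries, at 13.03 TPM from 625 counts in replicate 1 and 7.22 TPM from 343 counts in replicate 2. Its mean was 10.1 ± 4.11 TPM (SD, n = 2) and the difference was 0.77, short of 2-fold. All of its counts in both libraries were assigned to the model Nkx2-1-202, which starts at position 56535106. The model Nkx2-1-201 has an extra upstream exon and starts at position 56536908. It was at 0 TPM in both libraries, although 2209 of the 2242 bases of Nkx2-1-202 lie in it too. Of Nkx2-1, Lhx6 and Lhx8, Nkx2-1 had the smallest difference, and the same transcript was read in both libraries. The antisense gene Gm26973, whose bounds overlap Nkx2-1, had 0 counts in both libraries.

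Lhx6 and Lhx8 were both read in replicate 1 and at 0 counts in replicate 2. Of all genes detected in either library, 37.5% were found in one library alone. Whether the split of Lhx6 and that of Lhx8 are linked was not tested. Lhx6 (ENSMUSG00000026890.15, chromosome 2, 36081953 to 36105408, minus strand) was at 33.4 TPM in replicate 1 from 2351 counts and at 0 TPM in replicate 2. With counts scaled to each library's depth (CPM), replicate 1 held 800.3-fold more when 3 counts were taken as the floor for replicate 2. The lower limit of the 95% counting interval was 650.4-fold. Lhx8 (ENSMUSG00000096225.4, chromosome 3, 154306294 to 154330659, minus strand) was at 17.8 TPM from 650 counts in replicate 1 and at 0 in replicate 2. Its CPM was 221-fold higher in replicate 1 against that floor, and 179-fold by the lower limit of that interval. The floor of 3 counts set for a count of 0 is 0.107 CPM in replicate 2, and it covers counting error only. The deposited intervals in replicate 2 still left 0.0823 to 0.526 TPM for Lhx6 and 0.0524 to 0.467 TPM for Lhx8. Nkx2-1 was read in both libraries, and its relation to the levels of Lhx6 and Lhx8 was not tested.

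Lhx6 has 3 RefSeq start sites, and the reads of replicate 1 were assigned to models of the innermost one. Lhx6-202 and Lhx6-204, both starting at position 36104060, held 17.3 and 16.1 TPM in replicate 1. The models that start at position 36105408, Lhx6-203 and Lhx6-205, were at 0 TPM, as were all other Lhx6 models, and none begins at the start at position 36104533. This division among models is an estimate. Deposited intervals in replicate 1 still left up to 2.11 TPM for Lhx6-201, 0.532 TPM for Lhx6-205 and 0.436 TPM for Lhx6-203. The 250 bases before each start are shown, 5′ to 3′ on the minus strand and credited to RefSeq on GRCm38.p6, because the reads were assigned to one start among the 3. The homeodomain core motif TAATT, searched on both strands, is in capitals. It was found in 1 of the 10 windows matched for 8 of these genes, that of the Lhx6 start given the reads. Of all 32851 promoter windows of this length, 25.03% hold it. Among the other matched windows, only that of Dlx2 ends exactly at the start of a model with reads, so motif and start use cannot be compared here. A match to these letters is a description of the window and not a binding site.
Lhx6 start read in replicate 1, chr2:36104061-36104310: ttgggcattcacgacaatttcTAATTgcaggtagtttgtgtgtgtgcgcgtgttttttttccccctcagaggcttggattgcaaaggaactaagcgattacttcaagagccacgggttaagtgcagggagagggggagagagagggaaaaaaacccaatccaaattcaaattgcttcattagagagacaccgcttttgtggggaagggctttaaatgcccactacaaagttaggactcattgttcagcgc
Lhx6 start with no model, chr2:36104534-36104783: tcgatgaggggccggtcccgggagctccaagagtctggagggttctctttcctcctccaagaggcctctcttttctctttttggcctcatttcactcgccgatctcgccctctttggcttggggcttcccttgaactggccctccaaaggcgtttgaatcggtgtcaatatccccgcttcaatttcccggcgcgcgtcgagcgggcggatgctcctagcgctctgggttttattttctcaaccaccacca
Lhx6 start at 0 TPM, chr2:36105409-36105658: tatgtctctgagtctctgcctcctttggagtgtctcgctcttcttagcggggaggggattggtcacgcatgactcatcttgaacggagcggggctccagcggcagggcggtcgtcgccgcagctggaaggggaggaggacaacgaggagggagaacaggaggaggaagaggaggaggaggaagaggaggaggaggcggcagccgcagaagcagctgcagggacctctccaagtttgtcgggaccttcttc
The window of the start given the reads had a GC content of 46.0%, against 57.2% and 61.6% in the others.

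The pair of Lhx6 models differ by an exon of 104 bases near the 3′ end of the coding sequence, absent from Lhx6-204. It is shown because the reads divided almost evenly over its presence and absence, with 1237 counts on Lhx6-202 and 1114 on Lhx6-204. Its length is not a multiple of the codon, so each form ends in a different stretch of coding sequence. The exon is in capitals between its flanking exons, chr2:36087368-36087471, minus strand, from the GENCODE M21 transcript.
Lhx6 exon in Lhx6-202: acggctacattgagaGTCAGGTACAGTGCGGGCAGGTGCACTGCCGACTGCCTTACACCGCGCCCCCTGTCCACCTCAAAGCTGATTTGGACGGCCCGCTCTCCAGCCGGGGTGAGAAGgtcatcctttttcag
The deposited intervals of these forms overlap, at 12.2 to 21.6 TPM for Lhx6-202 and 10.2 to 18.9 TPM for Lhx6-204. The short RNA gene Gm27953, whose bounds cover this exon on the same strand, had 0 counts in both libraries. For Lhx8, 99.2% of the TPM in replicate 1 was given to the transcript ENSMUST00000176163.3, which release M21 of the annotation does not list. The model Lhx8-201, which it does list, had 0.15 TPM.

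**Figure D2:**
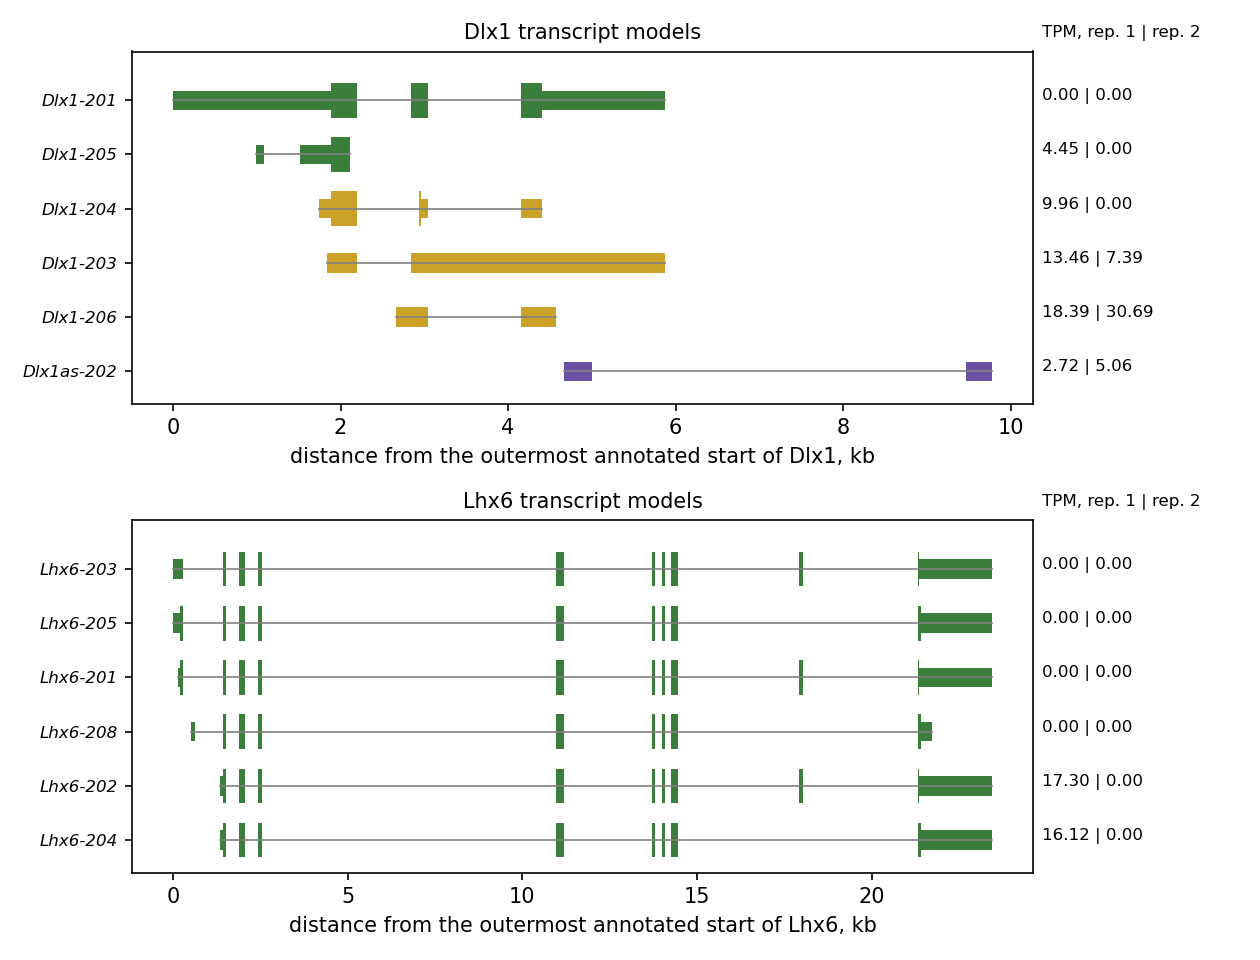
Exon maps of Dlx1 (top, with its antisense neighbour Dlx1as-202 in purple) and Lhx6 (bottom) by distance in kb from the outermost annotated start, tall boxes coding and low boxes non-coding, green for protein-coding and yellow for other models. TPM in replicate 1 and replicate 2 stands at the right: Dlx1 TPM fell mostly on Dlx1-203 and Dlx1-206, and Lhx6 TPM on the 2 models with the innermost start.

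Among the DLX genes, Dlx1 was read in both libraries, while Dlx2 and Dlx5 were high in replicate 2 and Dlx6 was low in replicate 1 and at 0 in replicate 2. Dlx1 (ENSMUSG00000041911.3, chromosome 2, 71528113 to 71533981, plus strand) was at 46.3 TPM from 1499 counts in replicate 1 and 38.1 TPM from 1018 counts in replicate 2, a mean of 42.2 ± 5.78 TPM (SD, n = 2) and a difference of 0.27. Dlx2 (ENSMUSG00000023391.8, chromosome 2, 71543408 to 71546754, minus strand), which lies 9426 bases from Dlx1, was at 0.13 TPM from 7 counts in replicate 1 and 22.7 TPM from 1196 counts in replicate 2. The CPM ratio of Dlx1 was 1.504 for replicate 1 over replicate 2 (95% counting interval 1.39 to 1.63), and its deposited intervals did not overlap. Dlx1 thus differed by less than 2-fold in TPM, while Dlx2 was read almost wholly in replicate 2. The CPM of Dlx2 in replicate 2 was 167 times that in replicate 1, with a 95% counting interval of 80.9 to 417.

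In the second pair, Dlx5 (ENSMUSG00000029755.9, chromosome 6, 6877805 to 6882085, minus strand) was at 1.02 TPM from 28 counts in replicate 1 and 59.6 TPM from 1750 counts in replicate 2. It passed the threshold in replicate 1 by very little, and its CPM in replicate 2 was 61.2 times that in replicate 1 (95% counting interval 42.2 to 92.4). Dlx6 (ENSMUSG00000029754.9, chromosome 6, 6863334 to 6868568, plus strand), 9236 bases away, was at 1.10 TPM from 52 counts in replicate 1 and at 0 counts in replicate 2. Its CPM was 17.7-fold higher in replicate 1 against the 3-count floor, and 13.9-fold by the lower limit of the 95% counting interval. Its deposited intervals lay closer, at 0.951 to 1.85 TPM in replicate 1 and 0.0380 to 0.672 TPM in replicate 2. Dlx5 and Dlx6 were thus opposite in direction, with Dlx6 low throughout. Dlx2 and Dlx5 were high in the library in which Lhx6 and Lhx8 were at 0.

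The Dlx5 reads of the libraries were also assigned to different models. All 28 counts of replicate 1 went to Dlx5-202 and all 1750 of replicate 2 to Dlx5-201, with 0 TPM for the other model each time. Dlx5-202 lacks 82 bases of the second exon, which hold the beginning of the homeobox, and its annotated coding part ends soon after. Those bases are shown in capitals within Dlx5-201, chr6:6879629-6879710, minus strand, from the GENCODE M21 transcript, because they separate the form read in each library.
Dlx5 bases in Dlx5-201: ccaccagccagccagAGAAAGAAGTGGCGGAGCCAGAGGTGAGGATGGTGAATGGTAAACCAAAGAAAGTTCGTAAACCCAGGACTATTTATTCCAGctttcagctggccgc
The remaining 1324 bases of Dlx5-202 are shared with Dlx5-201, so the choice in replicate 1 rests on few reads, and its interval there was 0.327 to 1.35 TPM against an upper limit of 0.594 TPM for Dlx5-201.

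For Dlx1, most of the level came from transcripts that are not annotated as coding. The spliced coding model Dlx1-201 was at 0 TPM in both libraries. Dlx1-206, annotated as a retained intron, held 39.8% of the TPM in replicate 1 and 80.6% in replicate 2, and Dlx1-203, also a retained intron, held 29.1% and 19.4%. The only coding model with reads was Dlx1-205, at 4.45 TPM in replicate 1 and 0 TPM in replicate 2. Coding transcripts thus carried 9.62% of the Dlx1 level in replicate 1 and 0% in replicate 2. These models share most of their bases with the coding one, 626 of 803 for Dlx1-206 and 2277 of 3385 for Dlx1-203, so the division of reads among them is an estimate. Dlx1-206 has the same junction at the end of the second exon as Dlx1-201, although it begins in the intron before that exon, while Dlx1-203 reads on into the intron. Both are shown on the plus strand, with the bases after the end of the second exon in capitals, since they are what separates spliced from unspliced Dlx1 RNA at this exon.
Dlx1-201 and Dlx1-206, junction from chr2:71531156 to 71532264: ctcacacagacgcagGTCAAGATATGGTTC
Dlx1-203, read into the intron, chr2:71531142-71531171: ctcacacagacgcagGTACCTGGCCGCTCT

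RNAs from the opposite strand of the DLX loci were read as well. The antisense gene Dlx1as, whose exons share 335 bases with Dlx1-201 and with Dlx1-203 and none with Dlx1-206, had 33.4 counts in replicate 1 and 122 in replicate 2, at 2.72 and 10.2 TPM. The use of strand in the authors' counting is not given in the sources used here, so reads of Dlx1 and Dlx1as over those bases may not be separable. Dlx6os1, the long RNA known as Evf2 that runs antisense across Dlx6, was at 0.05 TPM from 5 counts in replicate 1 and 28.1 TPM from 2604 counts in replicate 2. It was thus high in the same library as Dlx5 and not in that of Dlx6, and its exons share 0 bases with the exons of Dlx6. In replicate 2, 24.4 TPM belonged to Dlx6os1-201 and 3.71 TPM to Dlx6os1-202. A separate 146-base row of the same name had 0 counts in replicate 1 and 56 in replicate 2, and Dlx6os2 had 0 in both. The other genes of the family, Dlx3 and Dlx4, had 0 counts in both libraries.

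The GABA-synthesising enzymes were both read in both libraries, and both differed 2-fold in TPM, in opposite directions. Gad1 (ENSMUSG00000070880.6, chromosome 2, 70553072 to 70602014, plus strand) was at 20.5 TPM from 1452 counts in replicate 1 and 8.65 TPM from 556 counts in replicate 2, a difference of 1.15. Gad2 (ENSMUSG00000026787.3, chromosome 2, 22622205 to 22693874, plus strand) was at 25.4 TPM from 3207 counts in replicate 1 and 80.2 TPM from 4131 counts in replicate 2, a difference of -1.62. In counts the gap of Gad1 held, with a CPM ratio of 2.67 for replicate 1 over replicate 2 (95% counting interval 2.42 to 2.95), while that of Gad2 shrank to 1.26 for replicate 2 over replicate 1 (1.20 to 1.32).

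The Gad2 gap in TPM lay in one short transcript. The full coding model Gad2-201 was level, at 25.4 TPM in replicate 1 and 27.2 TPM in replicate 2, with deposited intervals of 23.9 to 25.6 and 25.6 to 27.4 TPM. Gad2-202, a processed transcript of 721 bases, was at 0 TPM in replicate 1 and 53.0 TPM in replicate 2. That level came from 732 counts, and 589 of its bases lie in Gad2-201 too. Since TPM divides by length, 732 counts on 721 bases outweighed the 3399 counts on the 5744 bases of Gad2-201. For Gad1 the coding model Gad1-201 held 15.5 TPM in replicate 1 and 0 TPM in replicate 2. Gad1-206, a processed transcript that begins at its own first exon and shares the other 2919 of its 2996 bases with Gad1-201, held 4.97 and 8.65 TPM. Counted over coding transcripts alone, Gad2 thus stood at a like level in both libraries and Gad1 was read in replicate 1. This division among models is an estimate, as all 556 Gad1 counts of replicate 2 went to Gad1-206. The deposited interval there left up to 0.247 TPM for Gad1-201. The antisense gene Gad1os and the miRNA gene Gm23636, within the bounds of Gad2, had 0 counts in both.

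**Figure D3:**
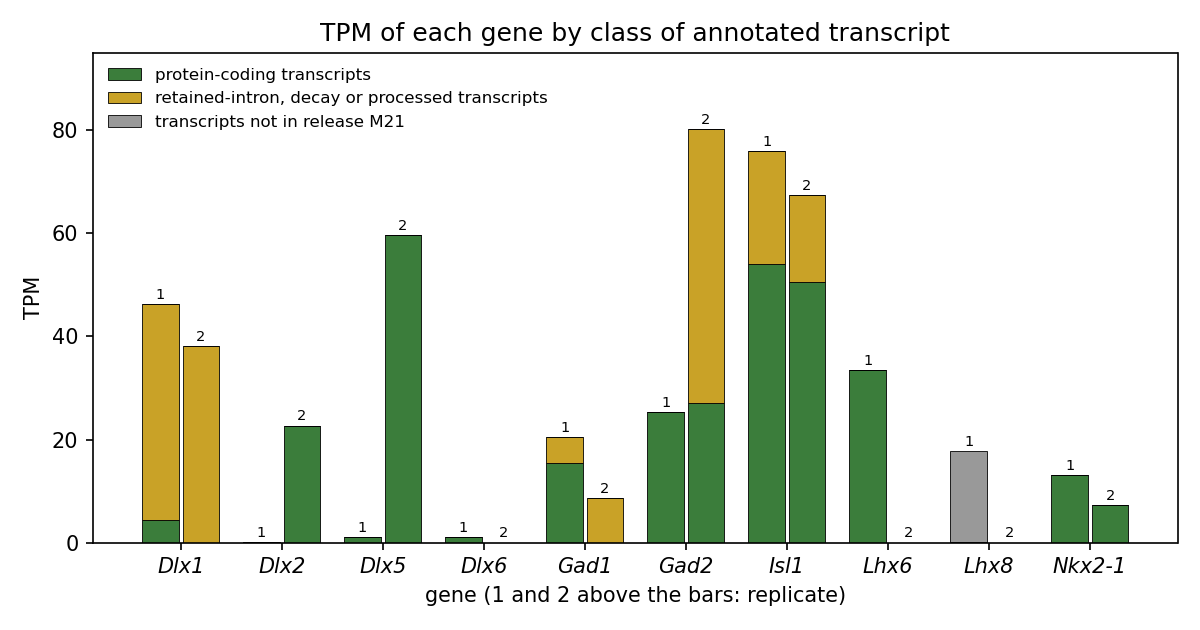
TPM of each gene in replicate 1 (left bar) and replicate 2 (right bar), divided into protein-coding transcripts (green), retained-intron, decay or processed transcripts (yellow) and transcripts not listed in release M21 (grey). The coding part of Dlx1 was 4.45 and 0 TPM, and that of Gad2 was 25.4 and 27.2 TPM beneath very different totals.

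Isl1 had the highest mean and the smallest difference of the 10 genes, although Gad2 was higher in replicate 2. Isl1 (ENSMUSG00000042258.9, chromosome 13, 116298281 to 116309689, minus strand) was at 76.1 TPM from 2408 counts in replicate 1 and 67.5 TPM from 2519 counts in replicate 2, with a difference of 0.17. In counts the order turned, by little, with a CPM ratio of 0.976 for replicate 1 over replicate 2 (95% counting interval 0.923 to 1.03). It was the one gene of the 10 whose deposited TPM intervals overlapped, at 70.7 to 81.0 and 61.5 to 71.2 TPM. By the deposited FPKM intervals Isl1 did not overlap, and all 8 genes with a mean of at least 10 TPM were then apart. Coding models held 54.1 TPM in replicate 1 and 50.6 TPM in replicate 2, and nearly all the remainder was Isl1-203, a retained intron. Within the coding part the mix shifted. The full form Isl1-201 had 26.9 and 36.6 TPM, and the shorter Isl1-202 had 27.2 and 14.03 TPM, so the short form made 50.3% of coding Isl1 in replicate 1 and 27.7% in replicate 2. The intervals of each form did not overlap between the libraries, at 21.5 to 29.7 and 9.24 to 17.3 TPM for the short form. Isl1-202 lacks 69 coding bases at the start of the fifth exon, which keeps the reading frame, the form described in mouse as Isl1 beta. They are shown in capitals, chr13:116301710-116301778, minus strand, from the GENCODE M21 transcript, because they are what separates the forms.
Isl1 bases in Isl1-201: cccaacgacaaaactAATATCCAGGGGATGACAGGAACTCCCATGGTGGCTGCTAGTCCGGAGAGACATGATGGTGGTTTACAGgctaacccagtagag

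**Figure D4:**
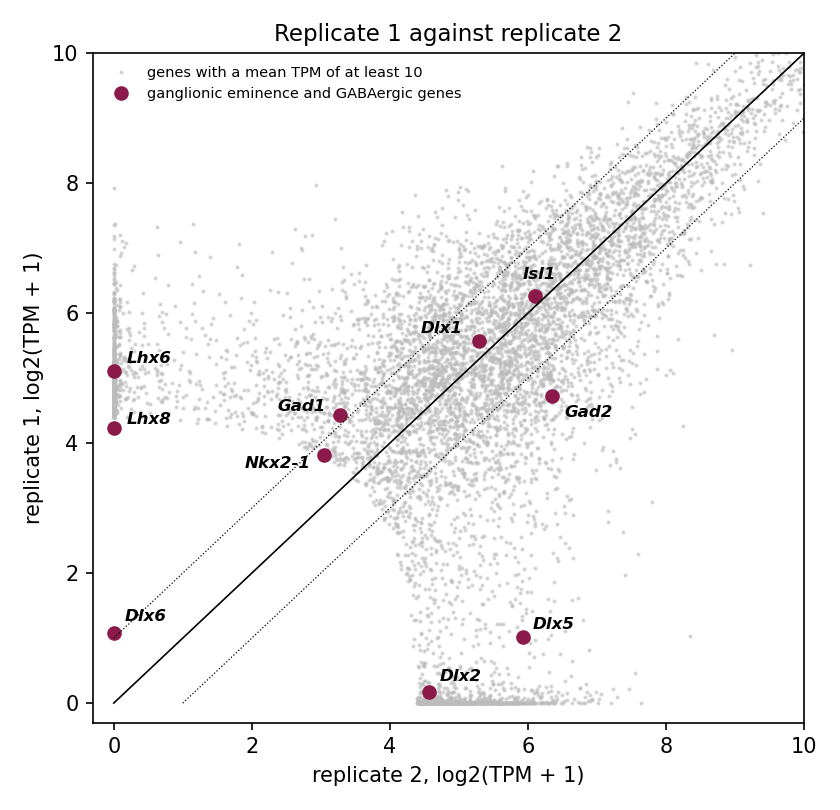
Level in replicate 1 against replicate 2, as log2(TPM + 1), for the 10 genes (dark red) over genes with a mean of at least 10 TPM (grey, shown up to 10 on each axis); the solid line marks equality and dotted lines 2-fold. Isl1, Dlx1 and Nkx2-1 lie inside the 2-fold lines, and Lhx6, Lhx8, Dlx2 and Dlx5 lie along the axes, where many other genes also lie.

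Set against all genes, differences of this kind were common. Of the 8 genes that reached a mean of 10 TPM, 5 differed 2-fold: Gad1 and Lhx6 were higher in replicate 1, beside 24.7% of all genes of that mean, and Dlx2, Dlx5 and Gad2 in replicate 2, beside 26.6%. The share over all 7680 such genes was 51.3%, or 60.1% from 10 to 100 TPM, so the count for these genes is near the background and is not particular to them. Dlx2, Dlx5 and Lhx6 reached that mean through one library, so they had to differ. Lhx8 and Dlx6 fell short of it. Under 1% of the depth-scaled counts lay in one library for 2 of the 8, Dlx2 and Lhx6, beside 18.1% of all such genes and 23.1% of those from 10 to 100 TPM. The deposited intervals did not overlap for 7 of the 8, beside 89.9%. The median difference over all 10 genes was 0.52, with 7 higher in replicate 1 and 3 in replicate 2, and that over all genes of a mean of at least 10 TPM was -0.02. Of the 5 genes with at least 5 TPM in both libraries, Dlx1 and Nkx2-1 had the same leading transcript in both, against 65.6% of all such genes with 2 or more transcripts. The leading transcript was not a coding one for 1 of 6 genes in replicate 1, beside 12.9% of protein-coding genes, and for 3 of 7 in replicate 2 (Dlx1, Gad1 and Gad2), beside 13.2%. With so few genes these shares are a description.

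Beyond the 10 genes, 69 others listed for the ventral telencephalon and for GABA handling were counted, of which 21 were detected in both libraries, 5 in replicate 1 alone, 12 in replicate 2 alone and 31 in neither. The share found in both, 30.4%, equals the 30.4% of all protein-coding genes, so the lists as a whole were at the background, and the counts of each list below are read against the same share. Of 11 genes for GABA transport, breakdown, receptors and chloride transport, 2 were detected in both. Abat, which breaks GABA down, was at 34.8 TPM in replicate 1 and 37.3 TPM in replicate 2, and the chloride importer Slc12a2 was at 11.9 and 12.0 TPM. The vesicular GABA transporter gene Slc32a1, which loads GABA for release, had 0 counts in both libraries, as did Slc6a11, Aldh5a1 and Gabbr1. The synthesising enzymes were thus read in libraries in which the loading transporter was not.

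Of 13 genes of the interneuron lineage, 5 were detected in both libraries and 5 in replicate 2 alone. Zeb2, a zinc-finger gene that steers cortical interneurons, was at 67.3 and 82.1 TPM, and the chromatin organiser gene Satb1 was at 37.8 and 12.6 TPM. Both stood in both libraries, also where Lhx6 was at 0. Npas1, Npy and Erbb4 had 0 counts in both. Of 13 genes of the striatal lineage, 7 were detected in both, with Meis2 at 30.7 and 80.4 TPM, Pbx3 at 26.6 and 19.4 TPM and Foxp1 at 5.73 and 35.7 TPM, while Rxrg and Ikzf1 had 0 counts in both. Of 5 genes of the caudal eminence, Nr2f1 at 115 and 149 TPM and Nr2f2 at 47.8 and 45.8 TPM were detected in both, Calb2 at 0 and 21.6 TPM came next, and Htr3a had 0 counts. All 5 cholinergic genes, with Chat, Slc18a3, Slc5a7 and Ngfr among them, had 0 counts in both libraries, in replicate 1 also, where Lhx8 was read.

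Of 12 ventral patterning and progenitor genes, the head homeobox gene Otx2 alone was detected in both, at 86.3 and 23.6 TPM. Olig2, a gene of ventral progenitors, was at 0.11 and 5.17 TPM, higher in the library in which Dlx2 and Dlx5 were high. Gsx2, Olig1, Nkx6-2, Vax1, Gbx1 and Gbx2 had 0 counts in both. The LIM cofactor gene Ldb1 was at 84.4 and 16.6 TPM, and the LIM-only genes Lmo4 and Lmo1 were at 56.4 and 38.2 TPM and at 17.3 and 46.0 TPM. The relatives Isl2 and Nkx2-4 had 0 counts in both.

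**Figure D5:**
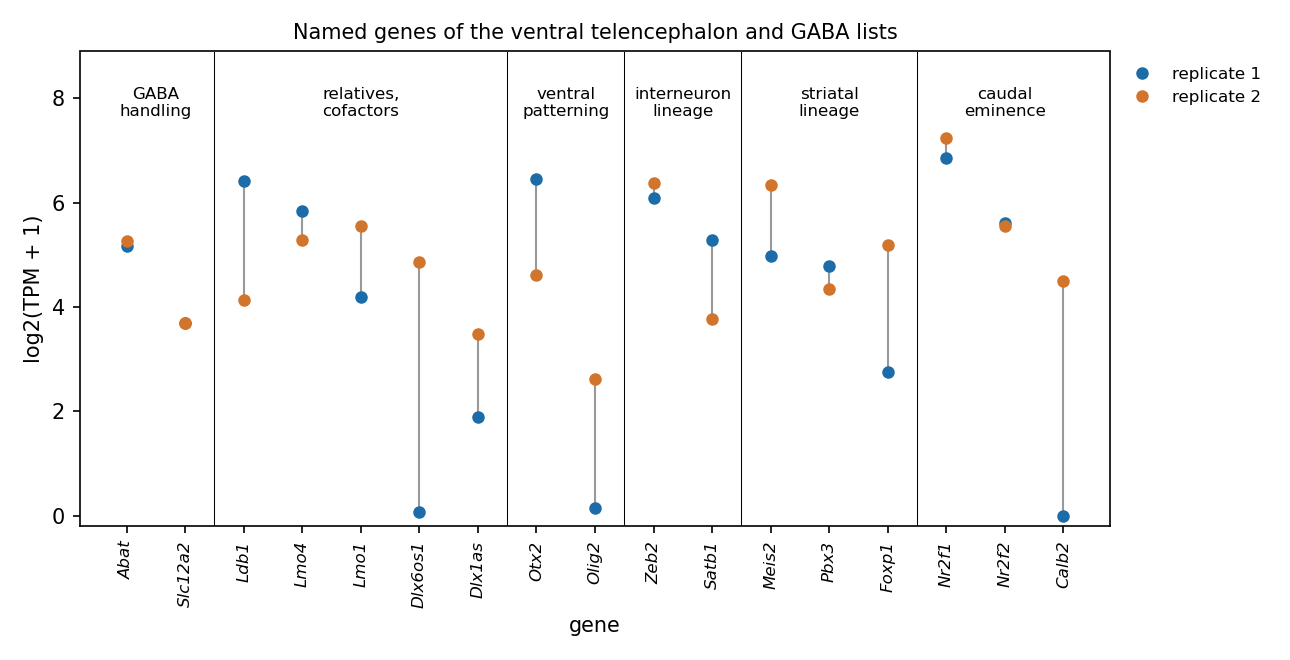
Level, as log2(TPM + 1), in replicate 1 (blue) and replicate 2 (orange) of the 17 genes of these lists that are named in the text and had at least 1 TPM in either library, grouped by list and joined by a line. Abat, Slc12a2, Zeb2 and Nr2f2 lay close together, while Calb2 and Dlx6os1 were read almost wholly in replicate 2.

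Some of these genes are used outside the eminences, so markers of other sources were counted. Of 9 markers of hypothalamus and prethalamus, where Nkx2-1 and Isl1 are also expressed, 2 were detected in both libraries, Lhx5 at 13.4 and 21.5 TPM and Pomc at 19.2 and 7.55 TPM, and Sim1 was at 3.81 and 0 TPM. Their summed level was 39.7 TPM in replicate 1 and 29.1 TPM in replicate 2, and Rax, Otp and Nr5a1 had 0 counts in both. Of 8 markers of midbrain and hindbrain GABAergic lineages none was detected in both. Helt was at 15.6 and 0 TPM, Gata2 at 0 and 10.1 TPM, and Tal1 at 0.06 and 0 TPM, with summed levels of 15.7 and 10.1 TPM and Gata3, Tal2, Sox14, En1 and En2 at 0 counts in both. Of 5 matched markers of cranial ganglia and motor neurons none was detected in both, and Pou4f1, Prph and Mnx1 had 0 counts. Of 8 markers of facial mesenchyme and placodes, in which Dlx5 is also expressed, Alx1 at 14.97 and 52.9 TPM and Prrx1 at 9.79 and 16.5 TPM were detected in both, and Twist1 was at 0 and 18.1 TPM. Their summed level was 24.8 TPM in replicate 1 and 89.0 TPM in replicate 2, higher in the library with Dlx5, and Hand2 and Barx1 had 0 counts. The part of these sources in the levels of Isl1, Nkx2-1 and Dlx5 was not tested.

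Genes of the dorsal telencephalon and of the glutamatergic lineage served for comparison. Of 12 such genes 8 were detected in both libraries, beside 6 of the 10 ganglionic eminence and GABAergic genes. The median of the mean levels was 15.6 TPM over the ganglionic eminence and GABAergic genes and 16.1 TPM over the comparison genes. The highest comparison genes were Pax6 at 85.6 and 30.1 TPM, Neurod1 at 33.9 and 54.5 TPM, and the glutamate transporter gene Slc17a6 at 7.57 and 43.7 TPM. Neurod6 and Slc17a7 had 0 counts in both. With lists of this size, no difference between the comparison genes and the ganglionic eminence and GABAergic genes was tested.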

How the data were processed

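RNA of 2 forebrain pools was measured, 1 library each. The authors deposited a gene and a transcript table per library. Per the file headers these hold expected counts (estimated reads, not always whole), TPM, FPKM, the percent of a gene's TPM in each transcript, and posterior SDs and interval limits, treated here as a score. The text deposited beside the tables names assembly mm10 and annotation M4. Aligner, quantification program and strand use were not given in the sources used here. TPM as deposited covers spike-ins too, which held 8.44% and 6.56% of it. Names, transcript classes and coordinates came from GENCODE M21 on mm10 by ID, promoter windows from RefSeq.

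Detection was a TPM of at least 1. Differences used log2(TPM + 1), called at 1 or more with a mean of at least 10 TPM. Leading transcripts were compared at a gene TPM of at least 5. Counting intervals are 95% Clopper-Pearson, and they and the 3-count floor cover counting error only, since reads lack molecular identifiers. The replicates came from separate pools of embryos, so their spread holds both pool and library. Scaling alternatives used edgeR 4.0.16 (TMM) and DESeq2 1.42.0 (median of ratios) on rounded expected counts.

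The genes and lists were chosen with earlier results of these data known. Named were all 10 genes, genes whose bounds overlap them, and from each list the 3 highest by mean TPM and those at 0 counts in both libraries. Some genes that this rule takes are not reported here. Mir3967, within Gad2, was not analysed here.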

Additional observations from a re-analysis of the deposited data

How the results depend on the processing

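The number of genes detected in both libraries was 6, and 4 to 7 wherever a threshold, unit or estimate was changed or replicate 1 was left out; with replicate 2 left out, 9 were detected in the other. The median level was 15.6 TPM, and 15.7 TPM without replicate 1 to 19.1 TPM without replicate 2. 2 kinds of alternative were added after seeing the data, transcripts annotated as protein-coding alone and leaving out a replicate for the listed genes. With coding transcripts alone the median level was 10.8 TPM and 4 genes were detected in both, since Dlx1 fell to a mean of 2.23 TPM and Gad1 to 0 in replicate 2. Both falls rest on the estimated division of reads among models. The coding difference was 2.45 for Dlx1, -0.09 for Gad2 and 0.20 for Lhx8, whose leading transcript has no class in release M21. With no filter on the mean, 4 genes lay in one library alone in place of 2. Of the listed genes 21 were detected in both, and 33 in replicate 2 with replicate 1 left out and 26 with replicate 2 left out. The difference of Gad2 lost its 2-fold size in counts, at -0.33 in CPM, -0.32 with TMM scaling and -0.37 with median-of-ratios factors. Gad1 (0.71 with a pseudocount of 10) and Dlx6 (0.15 with that pseudocount, 0.86 with posterior means) also fell short of it. The number of genes higher in replicate 1 was 7 in TPM and 6 in counts, since Isl1 was at -0.03 in CPM, and no 2-fold difference changed direction. No paired analysis was possible because there is 1 group. The 3-count floor was 0.110 and 0.107 CPM, and with 2 libraries no difference has a replicate check.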
